A study of Mus musculus with 6 samples.

Results

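Integrins are cell-surface receptors made of 1 alpha and 1 beta chain, and 10 integrin genes of mouse bone marrow-derived macrophages are described here: Itgal, Itgam, Itgax, Itgb2, Itga4, Itga5, Itga6, Itgb1, Itgav and Itgb5. They were taken by symbol from a fixed list of leukocyte integrin genes, which was chosen with earlier results of these data known. The counts of each gene's annotated transcripts were summed. All 10 of the 10 were found among 55263 annotated genes with deposited counts, and all 10 passed the filter on low counts. The cells, macrophages grown from marrow progenitors, fall into 3 groups of 2 libraries each: an unstimulated control, cells given LPS (lipopolysaccharide of the bacterial outer membrane, an agonist of TLR4), and cells that received both LPS and an agent labelled HACA. The labels call the control wild type, list the treatments of the other groups in the same genotype field, leave HACA undefined, and state neither doses nor times. The series title concerns a hyaluronic acid nanomedicine for psoriasis, so the comparisons ask what LPS did to the cells and what the agent did to LPS-treated cells.

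An integrin is switched from a bent, low-affinity form to an extended, high-affinity form when talin and kindlin bind the tail of the beta chain. The bound receptor holds a cell to matrix or to another cell and signals through Src-family kinases and Syk. The beta-2 chain (Itgb2) is specific to leukocytes and pairs with alpha-L (LFA-1, a receptor for ICAM-1), alpha-M (Mac-1 or CD11b, a receptor for cleaved complement C3 and fibrinogen) or alpha-X (CD11c, another complement receptor). The beta-1 chain (Itgb1) pairs with alpha-4 (VLA-4, which binds VCAM-1 and fibronectin), alpha-5 (the fibronectin receptor) and alpha-6 (a laminin receptor). Alpha-v (Itgav) pairs with several beta chains, among them beta-5 (Itgb5), a receptor for vitronectin and for apoptotic cells carrying Mfge8, and beta-8 (Itgb8), which activates latent TGF-beta.

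The genes for alpha-L, alpha-M and alpha-X lie in that order on chromosome 7 of GRCm38, all on the plus strand. Itgal spans 127296260 to 127335138, Itgam 128062640 to 128118491 and Itgax 128129547 to 128150657. Itgam and Itgax are 11055 bases apart, and 727501 bases separate Itgal from Itgam. Itgb2 lies on chromosome 10 (77530252 to 77565708), Itgb1 on chromosome 8 (128685654 to 128733200), Itga5 on chromosome 15 (103344286 to 103366763, minus strand) and Itgb5 on chromosome 16 (33829665 to 33949338). Chromosome 2 carries Itga6 (71745616 to 71858416), Itga4 (79255426 to 79333123) and Itgav (83724397 to 83806916).

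The sequences just before the start sites of 4 members show the motifs that differ between them. The neighbours Itgam and Itgax are shown because they moved in opposite directions in LPS, and Itgav and Itgb1 as examples of the members that rose. Each sequence is the 120 bases before the RefSeq start (GRCm38.p6, plus strand, 5′ to 3′), with capitals on the PU box GAGGAA, a purine-rich core bound by the myeloid factor PU.1, and on the AP-1 motif TGANTCA, on either strand.
Itgam, chr7:128062520-128062639: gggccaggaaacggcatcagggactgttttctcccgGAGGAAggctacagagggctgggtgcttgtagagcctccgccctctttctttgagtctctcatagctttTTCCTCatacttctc
Itgax, chr7:128129430-128129549: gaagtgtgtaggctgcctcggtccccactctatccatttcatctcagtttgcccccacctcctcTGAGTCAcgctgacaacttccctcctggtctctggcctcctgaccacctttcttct
Itgav, chr2:83724277-83724396: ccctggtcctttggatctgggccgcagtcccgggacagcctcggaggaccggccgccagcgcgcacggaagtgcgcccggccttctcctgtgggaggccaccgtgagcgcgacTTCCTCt
Itgb1, chr8:128685534-128685653: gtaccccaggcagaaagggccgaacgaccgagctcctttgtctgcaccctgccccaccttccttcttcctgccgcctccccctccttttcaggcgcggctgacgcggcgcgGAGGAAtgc
RefSeq promoters were found for 7 of the 10 members, and none was found for Itgal, Itgb2 and Itga6. Over the 250 bases before the start, the PU box was in 4 of the 7 (Itgam, Itgav, Itgb1 and Itga5), against 23.25% of 32851 promoters. The AP-1 motif was in Itgax alone of the 7, against 6.749% of promoters. The GC box GGGCGG, which may overlap the other motifs, was in 5 of 7 against 32.74%, and neither an NF-kB motif (1.412% of promoters) nor an ISRE, the interferon response element (2.977%), was in any of the 7. The members holding a PU box include Itgam, which was lower in LPS, and Itgav, Itgb1 and Itga5, which were higher. Of those without one, Itga4 and Itgax were higher and Itgb5 was lower. Among the members that rose, the 120 bases before the start hold a PU box in Itgav and Itgb1 but not in Itga4, Itga5 or Itgax. These matches describe letters in these windows and not binding sites.

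The libraries held 12516246 to 15361893 counts in annotated genes. The TMM factor, which sets the scale of each library from its bulk of genes, was 0.812 and 0.676 in the 2 LPS libraries and 1.14 to 1.19 in the other 4. Levels are given as CPM of the TMM-scaled library, and scaling by library totals instead moved the median log2 difference of all 17113 tested genes from −0.05 to −0.69 in LPS against control and from 0.06 to 0.70 in LPS with HACA against LPS. A gene was called changed at an adjusted p under 0.05 in edgeR's quasi-likelihood test. The labels do not say that the 2 libraries of a group came from separate cultures or animals, so p-values measure the spread between these libraries, which may be technical. All 9 macrophage markers had counts, and their summed level was 31177 to 53283 CPM, nearly all of it Lyz2. Adgre1, which encodes the macrophage marker F4/80, was at 0.397 to 0.674 CPM. In bulk RNA, fewer cells of a type and less RNA per cell cannot be told apart.

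Itgb2, the shared beta-2 chain, did not pass the test in any contrast, while its 3 alpha partners did in LPS. Itgb2 was at 114 and 101 CPM in the control libraries, 121 and 116 with LPS alone, and 105 and 83.0 in LPS with HACA. The 3 groups lay close together, with log2 differences of 0.14 ± 0.22 (SE, adjusted p = 0.670) for LPS against control and −0.33 ± 0.22 (adjusted p = 0.336) for LPS with HACA against LPS. Under library totals these became −0.50 (adjusted p = 0.141) and 0.31 (adjusted p = 0.363), so the sign depended on the scaling.

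Itgal, the alpha chain of LFA-1, was at 7.72 and 6.55 CPM in control, 23.5 and 54.5 with LPS alone, and 8.32 and 15.5 in LPS with HACA. Both LPS libraries stood above all 4 others, with LPS replicate 2 at more than double replicate 1. Itgal rose 5.47-fold in LPS (log2 2.45 ± 0.46, adjusted p = 0.00644) and fell 3.28-fold from there in LPS with HACA (log2 −1.71 ± 0.45, adjusted p = 0.0435). The rise lost its call without control replicate 1 (adjusted p = 0.0504) or 2 (0.0650). The fall lost it with limma-voom (adjusted p = 0.0567), under library totals (0.0997), in the fit of the contrast's 4 libraries (0.102) and without any 1 library other than LPS replicate 1 (0.0669 to 0.214). T and NK cells also carry LFA-1. Their 7 markers summed to at most 0.591 CPM in any library, and Cd3e, Ncr1 and Cd8a were at 0 in all 6.

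Itgam, the alpha chain of Mac-1, had few counts: 29 and 26 in control, 2 and 2 with LPS alone, and 29 and 9 in LPS with HACA. These are 1.82 and 1.72, 0.197 and 0.193, and 1.76 and 0.609 CPM. The LPS libraries were the lowest, and LPS with HACA replicate 1 reached the control level while replicate 2 did not. Itgam fell 8.72-fold in LPS (log2 −3.13 ± 0.77, adjusted p = 0.0185), a call lost with limma-voom (0.0626) and without control replicate 1 (0.0824), control replicate 2 (0.0779) or LPS replicate 2 (0.0540). The log2 difference of LPS with HACA against LPS was 2.56 ± 0.78 and did not pass (adjusted p = 0.0680), but it did under library totals (3.20, adjusted p = 0.0273) and without the filter (2.59, adjusted p = 0.0204). The 97 counts came from 2 of the 6 annotated transcripts, Itgam-205 and Itgam-204, and the full-length coding transcripts Itgam-201 and Itgam-203 were listed at 0. Over all genes, counts went almost only to transcripts with bases of their own, and where reads fell was not measured. Only 7.09% of Itgam's exonic bases belong to 1 transcript, and the gene Gm49368 shares 3450 of its exonic bases. A change in transcript use and a change in Itgam expression cannot be told apart in these counts.

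Itgax, the alpha chain CD11c, was at 11.5 and 16.7 CPM in control, 22.7 and 46.2 with LPS alone, and 12.9 and 19.3 in LPS with HACA. Replicate 2 was the higher one in every group, and the LPS libraries were above the rest. It rose 2.44-fold in LPS (log2 1.28 ± 0.40, adjusted p = 0.0427), a call that ended under library totals (0.60, adjusted p = 0.216), with limma-voom (0.0563), in the 4-library fit (0.0580), from its main transcript alone (0.0593), and without control replicate 1 (0.242), control replicate 2 (0.107) or LPS replicate 2 (0.178). The difference between LPS with HACA and LPS was −1.10 ± 0.40 and did not pass (adjusted p = 0.104). It passed without the filter on low counts (−1.08, adjusted p = 0.0140) and without LPS replicate 1 (−1.53, adjusted p = 0.0159). CD11c is also a dendritic cell marker. The 7 dendritic cell markers summed to 24.9 and 26.9 CPM in LPS and to 8.16 to 12.6 in the other libraries, mostly Xcr1 and Zbtb46 with Cd209a at 0 in all 6. Their part in the Itgax result was not tested.

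**Figure D1:**
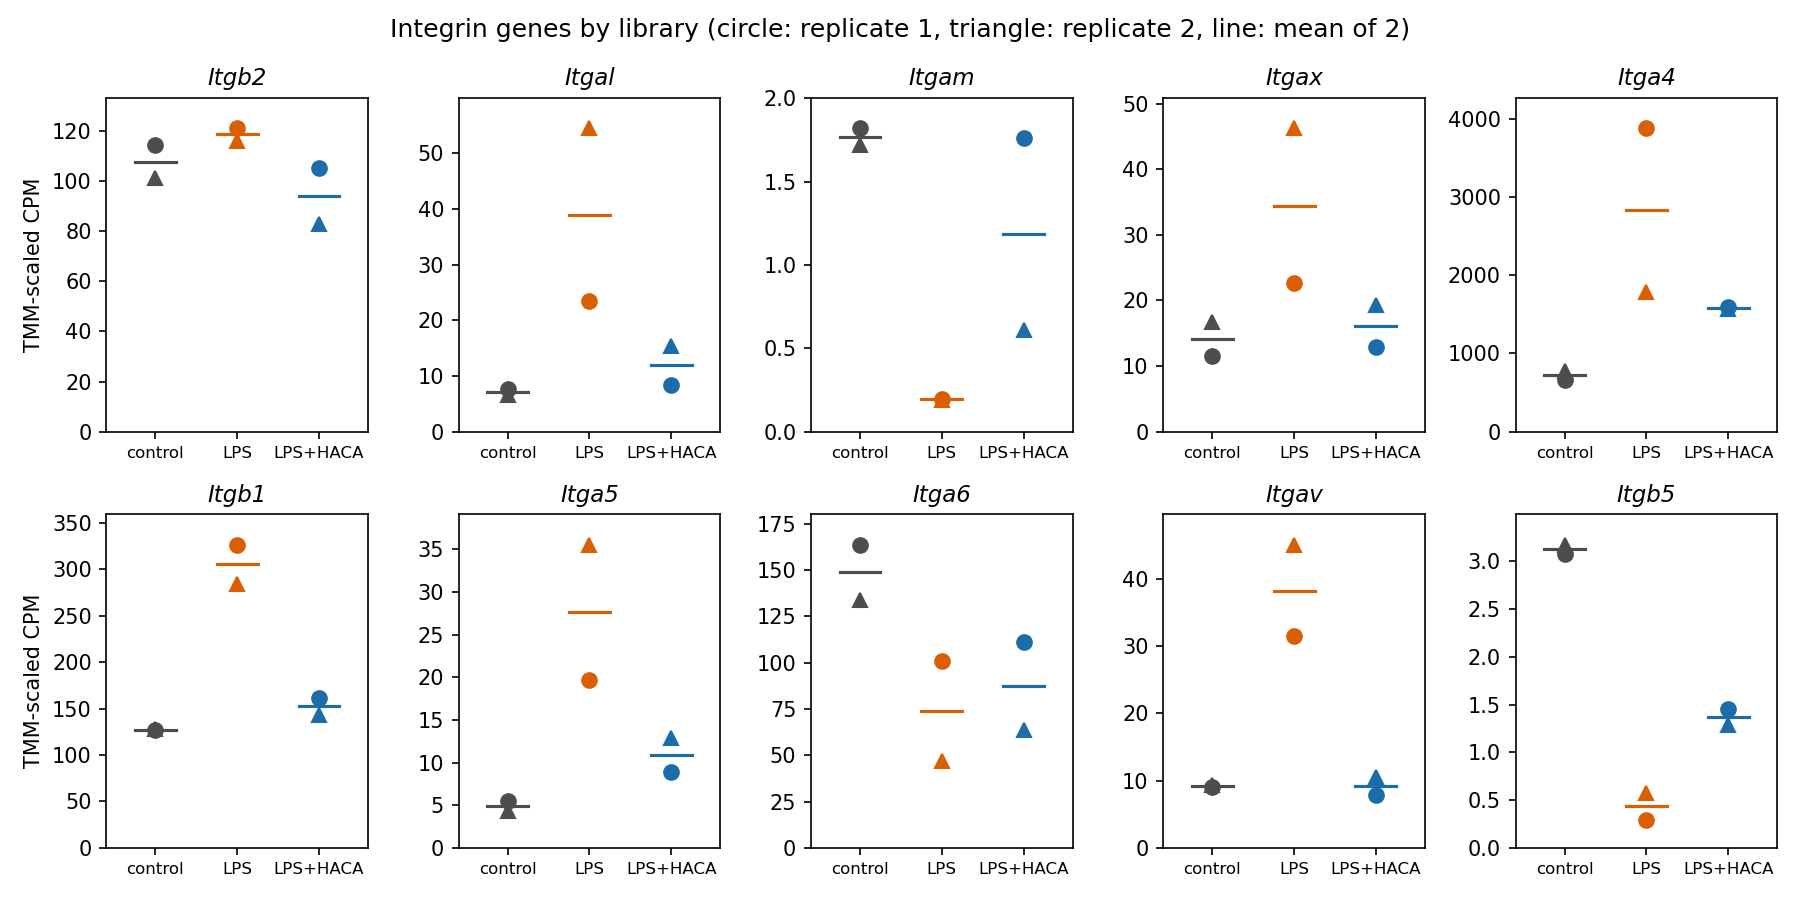
Level of each of the 10 integrin genes in TMM-scaled CPM (y axes, from 0, one scale per gene) in the 6 libraries by group (x axes); circles are replicate 1, triangles replicate 2 and lines the mean of 2. Itgb2 sits between 83.0 and 121 CPM in all libraries, while Itgal, Itga4, Itga5, Itgav and Itgb1 are highest in LPS and Itgam and Itgb5 lowest there.

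Of the beta-1 family, Itgb1, Itga4 and Itga5 rose in LPS and Itga6 did not pass as a gene. Itgb1 was at 127 and 128 CPM in control, 326 and 285 with LPS alone, and 161 and 143 in LPS with HACA. The replicates lay close together in each group and no groups overlapped. Itgb1 rose 2.40-fold in LPS (log2 1.26 ± 0.20, adjusted p = 0.00311) and fell 2.01-fold in LPS with HACA against LPS (−1.005 ± 0.20, adjusted p = 0.0186). Under library totals neither passed (0.63, adjusted p = 0.0667, and −0.37, adjusted p = 0.265). The fall also lost its call in the fit of 4 libraries (0.0703) and without any 1 library other than the LPS ones (0.0591 to 0.131). The difference from control in LPS with HACA was 0.26 ± 0.20 (adjusted p = 0.742).

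Itga4, the alpha chain of VLA-4, had the most counts of the 10, 129823 in all. Its level was 663 and 774 CPM in control, 3881 and 1791 with LPS alone, and 1601 and 1569 in LPS with HACA. Control was lowest in every library, and the LPS libraries differed by more than the gap between LPS replicate 2 and the LPS with HACA libraries. Itga4 rose 3.95-fold in LPS (log2 1.98 ± 0.34, adjusted p = 0.00451), with an adjusted p of 0.0515 without control replicate 1. The difference between LPS with HACA and LPS was −0.84 ± 0.33 (adjusted p = 0.134), and it passed without the filter (−0.80, adjusted p = 0.00543) and without LPS replicate 2 (−1.29, adjusted p = 0.00562). Against control, LPS with HACA was at 1.14 ± 0.34 and did not pass (adjusted p = 0.197), but it did without the filter (adjusted p = 3.87e-05), in the fit of those 4 libraries (0.0136) and without LPS replicate 1 (0.0103) or 2 (0.00813). All 5 transcripts of Itga4 rose in LPS, with log2 differences of 1.78 to 1.98. Cerkl overlaps 1124 exonic bases of Itga4 on the opposite strand and had 63 counts in all.

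Itga5, the fibronectin receptor's alpha chain, was at 5.46 and 4.30 CPM in control, 19.7 and 35.5 with LPS alone, and 8.87 and 12.8 in LPS with HACA. The 3 groups did not overlap. It rose 5.65-fold in LPS (log2 2.50 ± 0.37, adjusted p = 0.00244), and the rise kept its call in every alternative run. Of the 1057 counts, 45.8% and 23.5% came from transcripts annotated as retaining an intron. A transcript annotated for nonsense-mediated decay held 30.6%. The coding transcript Itga5-201 had 2 counts, in control replicate 1. Only 11.5% of the gene's exonic bases belong to 1 transcript, so a change in the coding transcript was not tested. Itga5 fell 2.55-fold in LPS with HACA against LPS (−1.35 ± 0.36, adjusted p = 0.0447). That fall lost its call under library totals (−0.67, adjusted p = 0.153), with limma-voom (0.0541), in the fit of 4 libraries (0.101), from the main transcript alone (0.0523) and without any 1 library other than LPS replicate 1 (0.0930 to 0.246).

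Itga6, a laminin receptor's alpha chain, was at 164 and 134 CPM in control, 101 and 46.7 with LPS alone, and 111 and 63.5 in LPS with HACA. Replicate 1 was higher in every group, and the control libraries were above the other 4. The log2 difference in LPS was −1.01 ± 0.40 (adjusted p = 0.0930), and it passed under library totals (−1.61, adjusted p = 0.0327), without the filter on low counts (0.00235) and without LPS replicate 1 (−1.66, adjusted p = 0.0120). The gene's counts were unevenly spread over its transcripts. One non-coding transcript, Itga6-203 (ENSMUST00000126787), held 94.1% of the counts, and its longest stretch of unshared bases (71856772 to 71858416) starts directly after the end of the coding transcript Itga6-202. Itga6-203 was at 155 and 121 CPM in control, 101 and 44.7 with LPS alone, and 110 and 58.9 in LPS with HACA, and it did not pass in LPS (−0.93 ± 0.41, adjusted p = 0.124), but it did under library totals (−1.52, adjusted p = 0.0306), without the filter on low counts (0.00663) and without LPS replicate 1 (−1.61, adjusted p = 0.00674).

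Of the other Itga6 transcripts, 4 had 1 to 3 counts over the 2 LPS libraries. Itga6-207 (ENSMUST00000155249), a coding transcript with unshared bases at 71853664 to 71854951, had 83 and 77 counts in control, 0 and 2 with LPS alone, and 12 and 14 in LPS with HACA. Its control level was 53.4 times that in LPS (95% interval of the count ratio 14.5 to 445; counting error only, as for all such intervals; edgeR adjusted p = 0.000288). Itga6-206 fell from 58 counts in control to 1 in LPS, Itga6-205 from 74 to 2 and Itga6-208 from 57 to 3, ratios of 38.7 (6.68 to 1556), 24.7 (6.60 to 208) and 12.7 (4.13 to 63.3). All 3 passed in edgeR (adjusted p = 0.00949, 0.00272 and 0.00810), but Itga6-206 did not without either control (0.0613 and 0.0672) nor Itga6-208 without control replicate 2 (0.0725). Itga6-201 was at 0.856 to 1.81 CPM in all libraries (LPS against control 0.14 ± 0.55, adjusted p = 0.885), and that sign turned under library totals (−0.47). This transcript has 0 unshared bases, so what its 101 counts measure is not known.

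Summed without Itga6-203, an analysis chosen after the values were seen, Itga6 was at 12.3 and 12.7 CPM in control, 1.97 and 1.44 with LPS alone, and 3.58 and 2.84 in LPS with HACA. The groups did not overlap. This sum fell in LPS (log2 −2.87 ± 0.34, adjusted p = 0.000955) and was lower in LPS with HACA than in control (−1.96 ± 0.31, adjusted p = 0.0327). Itga6-207 itself was higher in LPS with HACA than in LPS by a count ratio of 8.48 (2.12 to 73.7; edgeR adjusted p = 0.0446) and lower than in control (−2.64 ± 0.50, adjusted p = 0.0299). The first of these lost its call with DESeq2 (0.0741), limma-voom (0.147), the fit of 4 libraries (0.114) and without any 1 library other than LPS replicate 2 (0.0813 to 0.126), and the second without any 1 control or LPS with HACA library (0.104 to 0.225).

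**Figure D2:**
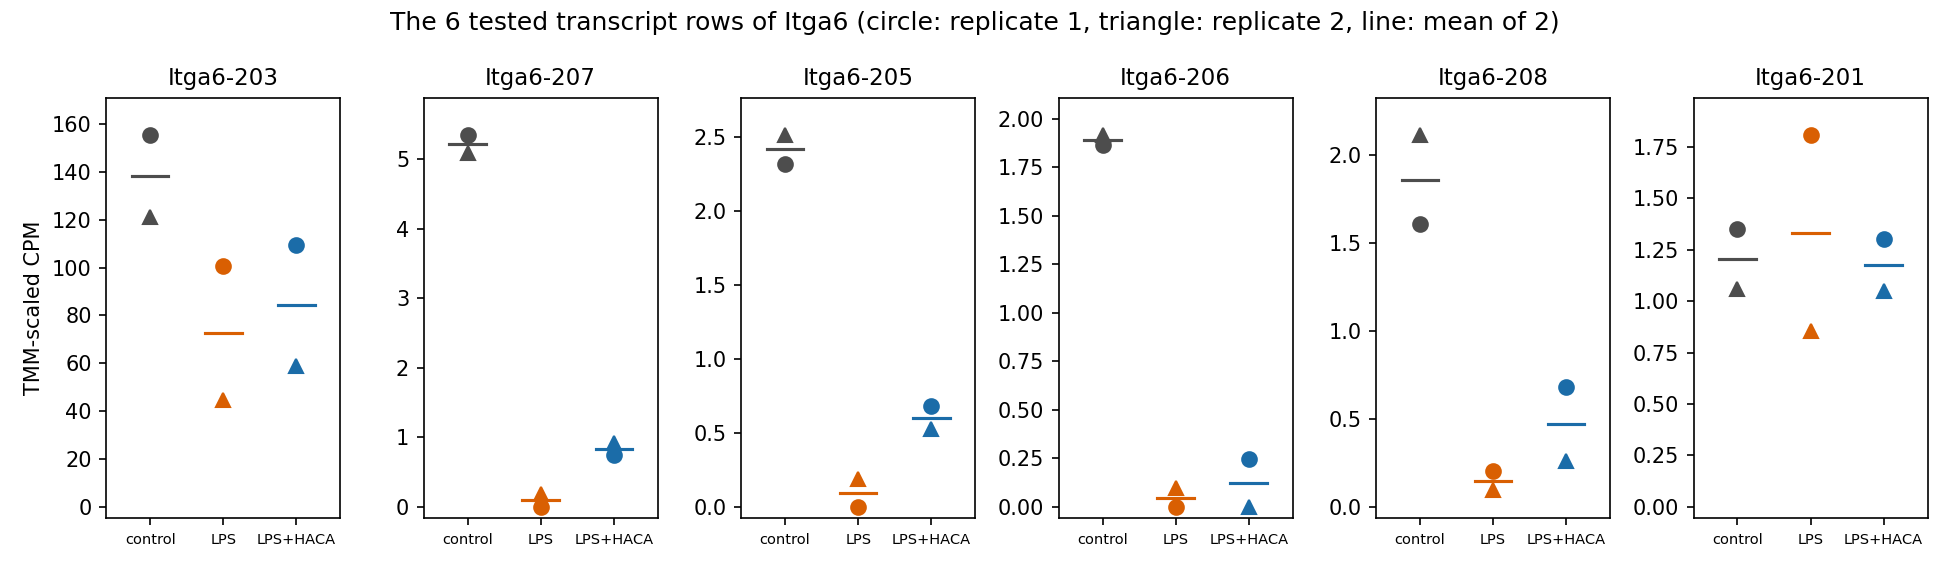
TMM-scaled CPM (y axes, one scale per panel) of the 6 tested Itga6 transcripts in the 6 libraries by group (x axes); circles are replicate 1, triangles replicate 2 and lines the mean of 2. Itga6-203, with 94.1% of the counts, keeps 44.7 to 101 CPM in LPS, while Itga6-207, 205, 206 and 208 are at 0.201 CPM or less there.

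A test of each transcript against the other transcripts of its gene was added after these values were seen. In LPS against control it called 1 of 27 member transcripts, Itga6-207 (log2 −3.19 relative to the rest of Itga6, adjusted p = 0.00374), against 0.464% of all transcripts tested. The call was lost without control replicate 1 (0.138), control replicate 2 (0.196) or LPS replicate 1 (0.218). In the other 2 contrasts it called 0 of the 27, with background shares of 0.0749% and 0%. Counted singly, 30 of the members' 58 transcripts were tested. In LPS, 20 of the 30 were higher and 6 lower (background 13.9% and 12.5% of all transcripts). Transcripts of the same gene are not independent. The 20 belong to Itga4, Itgav, Itga5, Itgal, Itgb1 and Itgax, and the 6 to Itga6, Itgam and Itgb5. Apart from Itga6, these are the genes called in LPS as gene sums. In LPS with HACA against LPS 1 was higher and 8 lower (4.75% and 6.31%). In LPS with HACA against control 0 were higher and 1, Itga6-207, lower (1.07% and 0.327%).

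Itgav rose and Itgb5 fell in LPS, so these 2 chains of the same receptor moved apart. Itgav was at 9.10 and 9.33 CPM in control, 31.4 and 45.1 with LPS alone, and 7.89 and 10.5 in LPS with HACA. Both LPS libraries were more than double every other library, and the LPS with HACA libraries lay on either side of the controls. It rose 4.15-fold in LPS (log2 2.05 ± 0.29, adjusted p = 0.00191) and fell 4.16-fold in LPS with HACA against LPS (−2.06 ± 0.29, adjusted p = 0.00699). The rise kept its call in every alternative run and the fall lost it without LPS with HACA replicate 1 (adjusted p = 0.0618). Against control, LPS with HACA differed by 0.00, with an SE of 0.28 (adjusted p = 0.9997). All 5 Itgav transcripts with counts rose in LPS, by 1.84 to 2.32 on the log2 scale. Only Itgav-201 among them is annotated as coding, and it held 16.5% of the counts on 108 unshared bases. It rose by 2.32 ± 0.40 (adjusted p = 0.00178). The others are annotated as retaining an intron (Itgav-203 and Itgav-208) or as non-coding (Itgav-207 and Itgav-209), and they held most of the gene's counts. The coding transcripts Itgav-202, Itgav-204, Itgav-205 and Itgav-206 have 0 unshared bases and 0 counts. The split of counts therefore does not give the share of coding RNA. Gm13684, which shares 634 exonic bases on the opposite strand, had 651 counts, against 1358 for Itgav, and no source used here says that counting used the strand.

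Itgb5 was at 3.07 and 3.17 CPM in control, 0.296 and 0.578 with LPS alone, and 1.46 and 1.28 in LPS with HACA, from 149 counts in all. The groups did not overlap, with LPS lowest. It fell 7.01-fold in LPS (log2 −2.81 ± 0.51, adjusted p = 0.00550), a call kept in every alternative run. From LPS to LPS with HACA the difference was 1.63 ± 0.53 and did not pass (adjusted p = 0.0801), though it did under library totals (2.29, adjusted p = 0.0204). Against control it was −1.18 ± 0.43 (adjusted p = 0.321).

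Counted together, 6 of the 10 members were higher in LPS than in control and 2 lower, where 15.9% and 14.3% of all tested genes were called. All 10 had no overlap between the 2 groups, as had 66.7% of all genes. The members' median log2 difference was 1.27, against −0.05 over all genes. Under library totals 4 were higher and 3 lower (8.28% and 29.9% of all genes), and the share of all calls that were higher went from 52.6% to 21.7%. With HACA added to LPS, 0 were higher than in LPS and 4 lower (Itgal, Itga5, Itgav and Itgb1), where 5.74% and 7.67% of all genes were called. Of the 10, 8 had an unadjusted p under 0.05, and DESeq2 and limma-voom also called 0 higher. The groups did not overlap for 9, all but Itga6, as for 57.7% of genes, and the median difference was −0.92 against 0.06. Under library totals 2 were higher (Itgam and Itgb5) and 1 lower, Itgav, (20.5% and 3.05% of genes), and the share of all calls that were higher went from 42.8% to 87.0%. These comparisons share the LPS libraries, so their values for a gene are not independent. The members were chosen with earlier results of these data known, so the shares of all genes are a background and not a test.

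In LPS with HACA against control, 0 of the 10 members were called in either direction by edgeR, DESeq2 or limma-voom, where edgeR called 0.894% of genes higher and 0.257% lower. Of the 10, 3 had an unadjusted p under 0.05, which were Itga4 (0.00955), Itga5 (0.0135) and Itgb5 (0.0260). The groups did not overlap for 6 members, as for 46.5% of genes, and the median difference was 0.09 against 0.00. A p that misses the threshold does not show that the levels were equal, and with 2 libraries a group the SE of these differences ran from 0.20 to 0.59.

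**Figure D3:**
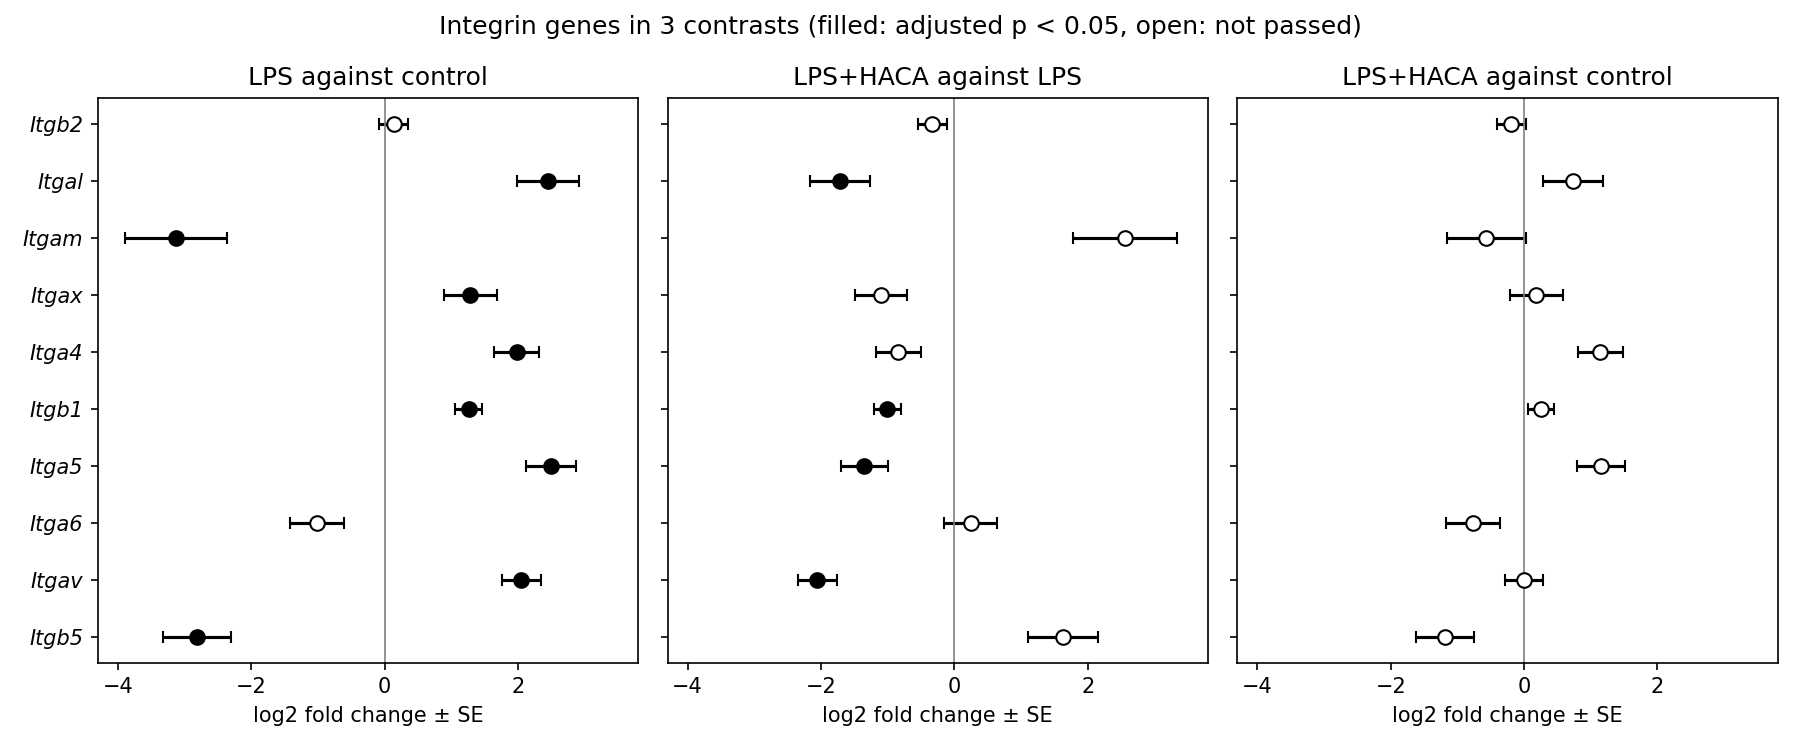
Log2 fold change of the 10 integrin genes (y axis) in 3 contrasts (panels), with bars of 1 SE from the edgeR fit; filled points have an adjusted p under 0.05. The first panel has 8 filled points and the second 4, and in the third the values run from −1.18 (Itgb5) to 1.15 (Itga5) with no point filled.

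Levels can be set against each other per length, as CPM per kilobase of unshared bases in each gene's most counted transcript. In control the order was Itgb2 (318 ± 33.1, SD, n = 2, here and below), Itgb1 (186 ± 2.64), Itga4 (101 ± 8.69), Itga6 (82.5 ± 14.4), Itga5 (11.2 ± 1.99), Itgb5 (9.08 ± 1.94), Itgax (5.23 ± 1.31), Itgam (5.22 ± 0.663), Itgal (3.59 ± 0.197) and Itgav (1.91 ± 0.243). The libraries of Itga5 and Itgb5 overlapped, as did those of Itgax and Itgam. In LPS the beta-1 chain led with 439 ± 51.6, followed by Itga4 (399 ± 216) and Itgb2 (348 ± 19.4), with Itga4 overlapping both. Among the beta-2 partners in LPS, Itgal (21.6 ± 9.41) and Itgax (12.2 ± 5.48) overlapped and Itgam (0.595 ± 0.260) was below both. In LPS with HACA, Itgb2 (274 ± 56.6), Itga4 (217 ± 10.8) and Itgb1 (216 ± 27.4) were first and overlapped in a chain, and Itgal (6.55 ± 2.20), Itgax (5.76 ± 1.48) and Itgam (3.48 ± 2.26) overlapped as well. In LPS the remaining members were Itga5 (60.6 ± 14.8) and Itga6 (43.3 ± 23.6), which overlapped, Itgav (7.55 ± 1.89) and Itgb5 (1.73 ± 0.284). Each value stands for 1 transcript's unshared bases, 197 (Itgb5) to 6788 (Itga4) of them, and not for the whole gene. The transcript used is annotated as retaining an intron for Itga5 (Itga5-203) and as non-coding for Itga6 (Itga6-203) and Itgav (Itgav-209). In control Itgav-209 was at 2.97 CPM on 1552 unshared bases, and the coding Itgav-201 at 1.33 CPM on 108. The place of a gene in these orders therefore depends on the transcript used. Itga6-201 had 101 counts on 0 unshared bases, so counts are not set by these bases alone. How reads lying partly on unshared bases were counted is not known, which matters most for transcripts with few such bases.

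Among the other integrin subunits, 10 of 17 were tested, and in LPS 1 rose (Itgb8) and 1 fell (Itgae), beside 15.9% and 14.3% of all genes. Where a list names a gene beyond the rule for named genes, as here for Itgae, it was chosen after its values were seen. Itgb8, the beta chain that pairs with alpha-v, was at 1.004 and 2.51 CPM in control, 248 and 155 with LPS alone, and 11.7 and 16.7 in LPS with HACA. The groups did not overlap, with LPS far above the rest. It rose 114-fold in LPS (log2 6.84 ± 0.52, adjusted p = 0.000199), fell 14.2-fold in LPS with HACA against LPS (−3.82 ± 0.45, adjusted p = 0.00449), and was higher in LPS with HACA than in control (3.01 ± 0.46, adjusted p = 0.0273). The last call ended with limma-voom (0.0622) and without control replicate 1 (0.237), control replicate 2 (0.123), LPS with HACA replicate 1 (0.0511) or 2 (0.101). Itga9, which also pairs with beta-1, fell in LPS with HACA against LPS (−1.71 ± 0.44, adjusted p = 0.0416), which ended under library totals (0.0997), with limma-voom (0.0679), in the fit of 4 libraries (0.0892) and without any 1 library other than LPS replicate 1 (0.0758 to 0.198). Itgb7, the partner of alpha-4 in gut homing, was also picked after its values were seen. It was at 68.8, 61.5 and 85.9 CPM in replicate 1 of control, LPS and LPS with HACA and at 20.6, 14.8 and 17.7 in replicate 2, so it followed the replicate number and not the group. So did the stromal markers, which summed to 39.5 to 59.5 CPM in replicate 1 and 2.91 to 5.78 in replicate 2, and in the reverse order the neutrophil markers (4.98 to 13.8 and 37.1 to 64.2, mostly Ngp, with Ly6g and S100a9 at 0). Their part in the members' replicate differences was not tested.

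Genes that switch integrins on or build the adhesion complex were tested for 23 of 25, and 8 rose and 2 fell in LPS, with a list median of 0.27. Of all tested genes, 15.9% rose and 14.3% fell in LPS, and 5.74% and 7.67% in LPS with HACA against LPS. Rap1b, the small GTPase that recruits talin, rose from 417 ± 26.4 to 1657 ± 233 CPM (SD, n = 2; log2 1.99 ± 0.20, adjusted p = 0.000522), and Vasp, an actin-filament elongation factor, rose by 2.33 ± 0.30 (adjusted p = 0.00136). Tes, a focal adhesion protein, rose by 2.11 ± 0.32 (adjusted p = 0.00244). The 2 that fell were Rassf5, the Rap1 effector RAPL (−1.97 ± 0.37, adjusted p = 0.00592), and Rasgrp2, an exchange factor for Rap1. From LPS to LPS with HACA, 0 rose and 6 fell (median −0.40), among them Rap1b (−1.40 ± 0.20, adjusted p = 0.00712), Tes (−1.37 ± 0.31, adjusted p = 0.0265) and Vasp (−1.30, adjusted p = 0.0278). The fall of Rap1b was lost without LPS with HACA replicate 1 (0.0587) or 2 (0.0503), and that of Tes under library totals (0.139) and without any 1 control or LPS with HACA library (0.0647 to 0.155). Under library totals the list had 6 higher and 4 lower in LPS and 4 higher and 1 lower in LPS with HACA against LPS. The shares of all genes were then 8.28% and 29.9%, and 20.5% and 3.05%.

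Of 9 tested genes in the list of integrin inhibitors, 2 rose and 1 fell in LPS (median −0.55), beside 15.9% and 14.3% of all genes. Flna, an actin crosslinker that competes with talin for beta tails, rose by 1.65 ± 0.44 (adjusted p = 0.0250, but 0.0897 under library totals and 0.0851 to 0.146 without any 1 control library or LPS replicate 2). Rasa3, a GTPase-activating protein that turns Rap1 off, fell from 91.2 ± 7.56 to 13.2 ± 3.51 CPM (−2.79 ± 0.26, adjusted p = 0.000391). From LPS to LPS with HACA, Rasa3 rose (1.95 ± 0.26, adjusted p = 0.00569). Of 16 kinases and adaptors, 5 rose in LPS (Lcp2, Pik3cg, Lyn, Syk and Fcer1g) and 1 fell (median 0.35), beside the same shares of all genes. The one that fell was Arhgap25, a Rac-inactivating protein (−2.27 ± 0.52, adjusted p = 0.0140, but 0.0675 and 0.0750 without control replicate 1 or 2). Lcp2, the adaptor SLP-76, rose by 2.71 ± 0.34 (adjusted p = 0.00123), and Pik3cg, a phosphoinositide kinase catalytic subunit of leukocytes, by 1.48 ± 0.24 (adjusted p = 0.00370). Between LPS and LPS with HACA, 3 fell (Lcp2, Pik3cg and Syk) and 0 rose, beside 7.67% and 5.74% of all genes. Pik3cg fell by 1.21 ± 0.24 on the log2 scale (adjusted p = 0.0193), a call that ended under library totals (0.103), in the fit of 4 libraries (0.0656) and without any 1 control or LPS with HACA library (0.0541 to 0.143). Lcp2 fell by 1.94 ± 0.33 on the log2 scale (adjusted p = 0.0121, and 0.0842 without LPS with HACA replicate 1).

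Of 18 tested integrin ligands, 4 rose (Icam1, C3, Lama5 and Adam17) and 3 fell in LPS (median 0.02). The shares of all genes called were 15.9% and 14.3%. Icam1, the main ligand of LFA-1, was at 255 and 272 CPM in control, 3603 and 4259 with LPS alone, and 912 and 1030 in LPS with HACA. The groups did not overlap. Icam1 rose 14.9-fold in LPS (log2 3.90 ± 0.22, adjusted p = 9.70e-05) and fell 4.05-fold in LPS with HACA against LPS (−2.02 ± 0.20, adjusted p = 0.00273). It was higher in LPS with HACA than in control (1.88 ± 0.20, adjusted p = 0.0115), a call lost without control replicate 1 (0.237) or 2 (0.158). C3, the complement protein whose cleaved form Mac-1 binds, rose by 1.75 ± 0.35 (adjusted p = 0.00824, but 0.0522 without control replicate 1 and 0.0804 without LPS replicate 2). Tgfbi, a matrix protein bound by several integrins, had 179 counts in control, 3 in LPS and 93 in LPS with HACA. Its control level was 39.4 times that in LPS (13.3 to 193), and the level in LPS with HACA 20.4 times that in LPS (6.76 to 101), with edgeR adjusted p = 0.00397 and 0.0223. The metalloproteinase genes Adam8 and Adam15 fell in LPS (−2.02 ± 0.32 and −1.85 ± 0.29, adjusted p = 0.00302 and 0.00293), and Adam15 rose in LPS with HACA against LPS (1.45 ± 0.29, adjusted p = 0.0186, but 0.0539 to 0.100 without control replicate 2 or either LPS with HACA library).

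Of 15 tested membrane partners, 5 rose (Sdc4, Slc3a2, Plaur, Cd53 and Cd47) and 2 fell (Nrros and Tspan4) in LPS, with a median of 0.44. The shares of all genes called were 15.9% and 14.3%. Sdc4, a heparan sulphate proteoglycan that acts beside the fibronectin receptor, rose from 270 ± 56.5 to 5685 ± 2179 CPM (log2 4.40 ± 0.34, adjusted p = 0.000201) and fell in LPS with HACA against LPS (−2.87 ± 0.32, adjusted p = 0.00390). Plaur, the urokinase receptor, a partner of Mac-1, rose by 1.74 ± 0.45 (adjusted p = 0.0217) and fell in LPS with HACA against LPS (−2.18 ± 0.46, adjusted p = 0.0216, but 0.0539 to 0.112 without any 1 control or LPS with HACA library). Nrros, which holds latent TGF-beta on myeloid cells for release by alpha-v beta-8, moved the other way, −1.78 ± 0.24 in LPS (adjusted p = 0.00168) and 1.48 ± 0.24 in LPS with HACA against LPS (adjusted p = 0.0107, but 0.0592 and 0.0669 without LPS with HACA replicate 1 or 2). Slc3a2, the heavy chain CD98 that binds beta-1 tails, rose by 2.04 ± 0.49 (adjusted p = 0.0186), a call lost without control replicate 1 (0.114) or 2 (0.0938).

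Among 11 tested transcription factors known to act on integrin genes, 4 rose (Spi1, Ets1, Cebpb and Srf) and 3 fell (Cebpa, Irf8 and Mrtfa) in LPS, with a median of 0.39. The shares of all genes called were 15.9% and 14.3%. Spi1, which encodes PU.1, was at 325 and 320 CPM in control, 994 and 1320 with LPS alone, and 488 and 539 in LPS with HACA. It rose by 1.84 ± 0.22 (adjusted p = 0.000891) and fell in LPS with HACA against LPS (−1.17 ± 0.21, adjusted p = 0.0139, but 0.0743 under library totals and 0.115 and 0.0702 without LPS with HACA replicate 1 or 2). Ets1, a founding member of the Ets family, rose by 2.01 ± 0.37 (adjusted p = 0.00554), though not when control replicate 1 was left out (0.0582). Cebpa, a factor of myeloid differentiation, fell by 1.59 ± 0.42 on the log2 scale (adjusted p = 0.0239), a call lost without control replicate 1 (0.112) or 2 (0.0896), and Irf8, a factor of the monocyte lineage, fell by 1.13 ± 0.23 (adjusted p = 0.00862, and 0.0869 without control replicate 2). Srf, an actin-responsive factor, rose in LPS and fell in LPS with HACA against LPS (−0.92 ± 0.22, adjusted p = 0.0331, but 0.427 under library totals and 0.0880 to 0.186 without any 1 control or LPS with HACA library). In LPS with HACA against control, Itgb8 and Icam1 were the 2 genes called among the 102 tested in the 7 lists, both higher. Of all genes, 0.894% were called higher and 0.257% lower. Scaling by library totals turned the list medians in LPS negative for the activators (−0.35), the kinases and adaptors (−0.30), the ligands (−0.60), the membrane partners (−0.17) and the transcription factors (−0.25), beside −0.69 over all genes. Higher and lower calls in LPS were then 2 and 5 for the kinases and adaptors, 2 and 4 for the ligands, 2 and 5 for the membrane partners, 3 and 4 for the transcription factors and 1 and 4 for the inhibitors. In LPS with HACA against LPS they were 2 and 1, 3 and 1, 3 and 2, 4 and 0, and 1 and 1 for the same lists. Of all genes under library totals, 8.28% and 29.9% were called in LPS, and 20.5% and 3.05% in LPS with HACA against LPS.

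**Figure D4:**
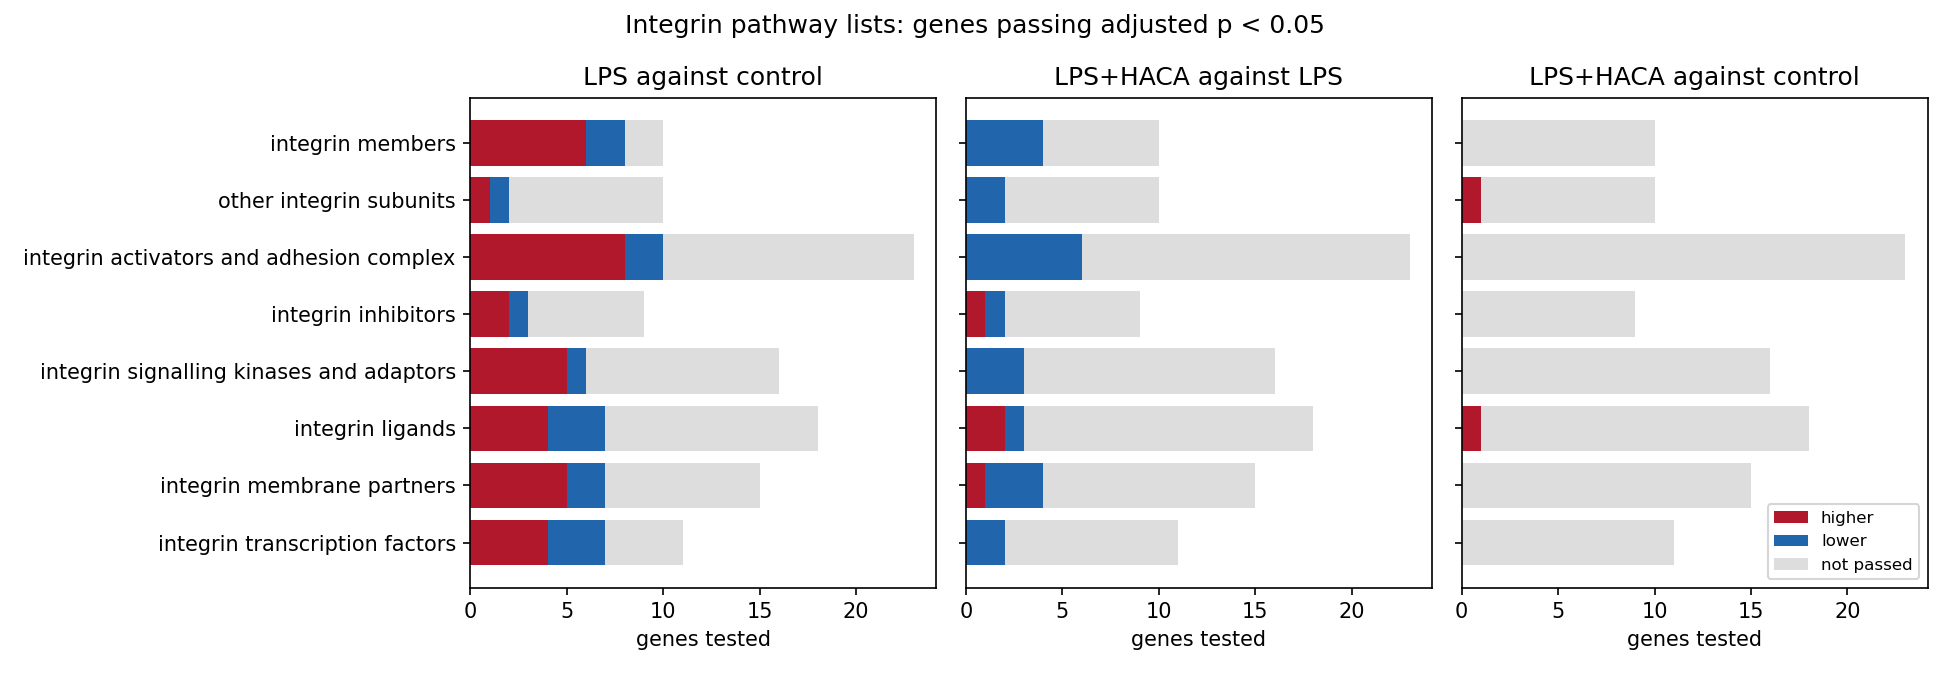
Number of tested genes (x axis) that were higher, lower or did not pass in the 10 integrin genes and the 7 lists of other integrin and adhesion genes (y axis), in 3 contrasts (panels). Of all tested genes, 15.9% were higher and 14.3% lower in LPS against control, and 5.74% and 7.67% in LPS with HACA against LPS. Higher calls outnumber lower ones in LPS against control for the 10 members (6 and 2) and the activators (8 and 2), and in LPS with HACA against LPS the members have 0 and 4 and the activators 0 and 6; under library totals these last became 2 and 1, and 4 and 1.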

How the data were processed

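TruSeq libraries were made from poly-A selected RNA of mouse macrophages in 3 groups of 2, per the labels' protocols. The authors deposited whole-number read counts for each annotated transcript, as the values show, and FPKM values, which were not tested here. Builds named in the submitters' processing notes are GRCh38 and GRCm38, and tools are STAR 2.5.4b, Trim Galore, CASAVA, DESeq2 1.26.0, edgeR 3.28.1 and limma, without roles. Which program counted, and whether it used strand, is not given in the sources used here. Transcripts with at least 100 bases of their own held 99.2% of the counts. Reads on shared exons may thus have been mostly left out of the deposited counts, but where reads fell was not measured.

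Transcripts were summed into genes with the GENCODE vM21 annotation (GRCm38). Of 142647 transcripts, 141524 matched it, and the 1123 others (at most 0.115% of the counts of any library) were left out. One edgeR 4.0.16 quasi-likelihood model in R 4.3.3 (filterByExpr, TMM, robust, group as the only term, 3 residual degrees of freedom) was fitted to all 6 libraries and 17113 genes, with Benjamini-Hochberg adjustment over all of them. The SE is the absolute log2 fold change over the square root of F. Where a group had 1 to 3 counts, the ratio of counts is given with an exact 95% interval. Tested on simulated counts for LPS against control (16272 genes, 100 changed genes per fold), the fit recovered 47% of 4-fold and 1% of 2-fold changes with 2 false calls. In the data that contrast called 2715 genes higher and 2442 lower, far more than were changed in the simulation. The Benjamini-Hochberg cut-off depends on that number, so the simulated shares do not give the power of the tests reported here. Precision is lowest for the members with fewest counts, Itgam (97) and Itgb5 (149).

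Alternatives were library totals, DESeq2 1.42.0, limma-voom (limma 3.58.1), no filter, a replicate block, the 4 libraries of a contrast, the most counted transcript, and each library left out. The members and lists were chosen with earlier results of these data known. Beyond the members, the text names, per list and contrast, up to 2 called genes in each direction with the largest change and a mean of at least 5 CPM in the higher group. One gene that this rule names is not reported here.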

Additional observations from a re-analysis of the deposited data

How the results depend on the processing

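Library totals in place of TMM factors moved several counts of calls. The members higher and lower were 4 and 3 in LPS against control and 2 and 1 in LPS with HACA against LPS, and the member transcripts were 13 higher in the first and 4 higher and 4 lower in the second. Itgb2 turned sign in both (−0.50 and 0.31), as did Itga6-201 in LPS (−0.47). With limma-voom 1 member was lower in LPS and 2 in LPS with HACA against LPS, and 0 transcripts were higher there, as with DESeq2, which called 1 transcript higher and 2 lower in LPS with HACA against control. In the fit of a contrast's 4 libraries, the members had 1 lower in LPS with HACA against LPS and 1 higher in LPS with HACA against control, and the transcripts 0 higher and 4 lower, and 5 higher and 3 lower. Without the filter 1 member (Itgam) was higher in LPS with HACA against LPS and 2 (Itga4 and Itga5) in LPS with HACA against control, with 5 transcripts higher and 2 lower in the latter. Without the filter, Itga6 was also lower in LPS (adjusted p = 0.00235), and Itgax (0.0140) and Itga4 (0.00543) lower in LPS with HACA against LPS. Itgav in LPS with HACA against control, near 0, turned to 0.0047 without the filter, 0.0025 in the fit of 4 libraries and 0.042 from its main transcript. Beyond the members, the fit of 4 libraries also ended the calls in LPS with HACA against LPS of Spi1 (adjusted p = 0.0568) and Tes (0.0707). It likewise ended those of Plaur (0.0672), Srf (0.0956) and Adam15 (0.0553). From the main transcript alone, Adam15 in that contrast (0.0780) and Flna in LPS (0.103) did not pass. The cause of these changes was not tested.

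Leaving out 1 library assumes that the remaining library of its group varies like the others. The members higher in LPS then numbered 3 to 6 and those lower 1 to 3, in LPS with HACA against LPS 0 to 0 and 0 to 5, and in LPS with HACA against control 0 to 1 and 0 to 0. The transcripts numbered 10 to 20 higher and 2 to 7 lower, 0 to 1 and 1 to 13, and 0 to 6 and 0 to 3. Sign turned for Itga6 in LPS with HACA against LPS (−0.21 to 0.90), for Itgax (−0.13 to 0.48) and Itgav (−0.22 to 0.21) in LPS with HACA against control, and for Itga6-201 in LPS (−0.47 to 0.59).

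Groups share replicate numbers, and same-numbered libraries deviated together (correlations of 0.333, 0.557 and 0.548 between the 3 pairs of groups), but the labels do not say what a number marks and each contrast has 2 pairs. With a replicate block 1 member, Itgam, was higher in LPS with HACA against LPS (adjusted p = 0.0437) and 1, Itga4, in LPS with HACA against control (0.0460), where 4 transcripts were higher and 2 lower. Itga6 and its transcript Itga6-203 passed in LPS (0.00247 and 0.00265), and Itgax in LPS with HACA against LPS (0.00772). Of the single genes and transcripts under all alternatives, 827 values kept their direction and side of the threshold, 126 lost and 25 gained a call, and 15 turned sign. The few counts of Itgam (97) and Itgb5 (149) limit what could be detected.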
